A study of Homo sapiens with 6 samples.

Results

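The cells described here are those with high levels of an 11-gene inflammatory panel in a Drop-seq library of PC9 cells transduced with an shRNA against KDM5A and then given erlotinib. Drop-seq captures the 3′ ends of messenger RNA from single cells in droplets and counts molecules by unique molecular identifiers (UMIs). A barcode was kept as a cell with at least 1000 UMIs, of which at most 20% were mitochondrial. The panel held NFKBIA, ICAM1, TNFAIP2, TNFAIP3, BIRC3, IL32, CXCL1, IL8, CXCL2, NFKBIZ and RELB. A cell was called high with at least 3 panel UMIs that made up at least 0.15% of its UMIs, and low with a panel share below 0.05%. The cells were thus selected on the summed UMIs of these 11 genes. By this rule 100 of the 332 kept cells of the library were high, 57 were low and 175 lay between. All 6 libraries of the series together held 1769 kept cells.

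PC9 cells come from a human adenocarcinoma of the lung and depend on a mutated, active EGFR, and erlotinib inhibits the EGFR kinase. KDM5A and KDM5B are histone demethylases that remove methyl groups from lysine 4 of histone H3, and the study asked about drug-tolerant cells. The KDM5A shRNA cells carried the pLVTHM-shKDM5A-GFP vector and received 2 µM erlotinib for 1 day from day 4 after transduction. A library labelled KDM5A and KDM5B shRNA received both pLVTHM vectors and the same erlotinib dose from day 5, and a library overexpressing 3xFLAG-HA-tagged KDM5A from a CMV promoter received it from day 6. The CPI-455 library, without virus, had 6.25 µM of this KDM5 inhibitor for 4 days with the same erlotinib treatment. The scrambled shRNA library and the untreated library had no erlotinib. Transduced cells were grown in 10% serum and the others in 5%. Each condition was 1 library, and no library had erlotinib without a change to KDM5 activity, so the drug and the KDM5 change cannot be told apart here. No label names separate cultures.

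Kept cells carried a median of 2144 UMIs in the untreated library and 3629 to 4900 UMIs in the other 5, with 3629 in the KDM5A shRNA library. No cell barcode was shared between any pair of libraries. KDM5A itself stood at 56.9 CPM (UMIs per 1000000 UMIs outside the panel) over the kept cells of the KDM5A shRNA library, against 83.7 CPM in the scrambled library and 120 CPM in the untreated library. KDM5B was at 133.5 CPM in the library labelled KDM5A and KDM5B shRNA, against 151.5 CPM in the KDM5A shRNA library, 101.7 CPM with CPI-455, 89.3 CPM with KDM5A overexpression, 45.8 CPM in the scrambled library and 62.0 CPM in the untreated library. It was thus below 1 of the other 3 erlotinib libraries and above both libraries without the drug, which leaves its label unchecked.

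The panel genes belong to the NF-kB pathway. In resting cells NF-kB dimers are held in the cytoplasm by inhibitors such as IkBα, the product of NFKBIA. When receptors for cytokines or damage signals activate the IKK kinases, IkBα is degraded, the dimers enter the nucleus and bind short κB elements in promoters and enhancers. Many of the genes they switch on are brakes of the same pathway, among them NFKBIA and TNFAIP3, while others encode chemokines, adhesion molecules and survival factors.

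The promoters of the panel genes were read for such elements, as a description of the panel. A κB-type motif of 10 bases (GGG, any 2 bases, TT, any base, CC) was sought on both strands of the 250 bases before the RefSeq start of each gene (RefSeq table, build GRCh38.p14; the count tables themselves are on hg19). Of the 11 panel genes, 10 were matched in the table, and 7 of the 10 (70%) held a match, against 1779 of 35116 promoters (5.07%) overall. The panel is made of genes of this pathway, so the higher share describes the choice of genes and not these cells. The matched stretches are printed 5′ to 3′ on the coding strand, with the motif in capitals.
NFKBIA, chr14:35404796-35404855, minus strand: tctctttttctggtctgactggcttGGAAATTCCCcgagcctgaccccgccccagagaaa
TNFAIP3, chr6:137867167-137867238, plus strand: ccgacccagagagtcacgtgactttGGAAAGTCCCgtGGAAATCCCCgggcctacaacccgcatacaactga
IL32, chr16:3065279-3065338, plus strand: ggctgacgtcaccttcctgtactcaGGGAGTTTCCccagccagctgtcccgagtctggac
CXCL1, chr4:73869289-73869348, plus strand: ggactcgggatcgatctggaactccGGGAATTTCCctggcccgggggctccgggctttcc
CXCL2, chr4:74099239-74099298, minus strand: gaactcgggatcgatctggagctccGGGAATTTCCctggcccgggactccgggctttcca
BIRC3, chr11:102317260-102317319, plus strand: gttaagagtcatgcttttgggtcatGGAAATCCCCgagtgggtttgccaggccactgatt
NFKBIZ, chr3:101827742-101827801, plus strand: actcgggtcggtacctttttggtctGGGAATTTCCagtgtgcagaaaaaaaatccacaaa
TNFAIP3 held 2 matches, 67 and 55 bases upstream of its start. The neighbouring chemokine genes CXCL1 and CXCL2 carried the same 10 letters in nearly identical surroundings, 79 and 78 bases upstream. The windows of ICAM1, TNFAIP2 and IL8 held no match. None of the 17 genes outside the panel that were called across libraries (below) and matched in the table held the motif in this window. A match describes letters only, and its absence says nothing of κB elements with other letters or of binding elsewhere.

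The panel levels that chose the cells are given as a description, without a test. The panel made up 0.263% of all UMIs in the high cells, 0.102% in the cells between and 0.0254% in the low cells. The high cells nearest the threshold had 0.151% of their UMIs in the panel, and the nearest cell outside it with 3 or more panel UMIs had 0.1499%. At the lower threshold the values were 0.0497% for the highest low cell and 0.0504% for the lowest cell between. A further 5 cells reached 0.15% with fewer than 3 panel UMIs and were not called high. The 3 classes therefore cut a continuous range of panel shares. Whether separate populations lie behind this range was not tested.

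**Figure D1:**
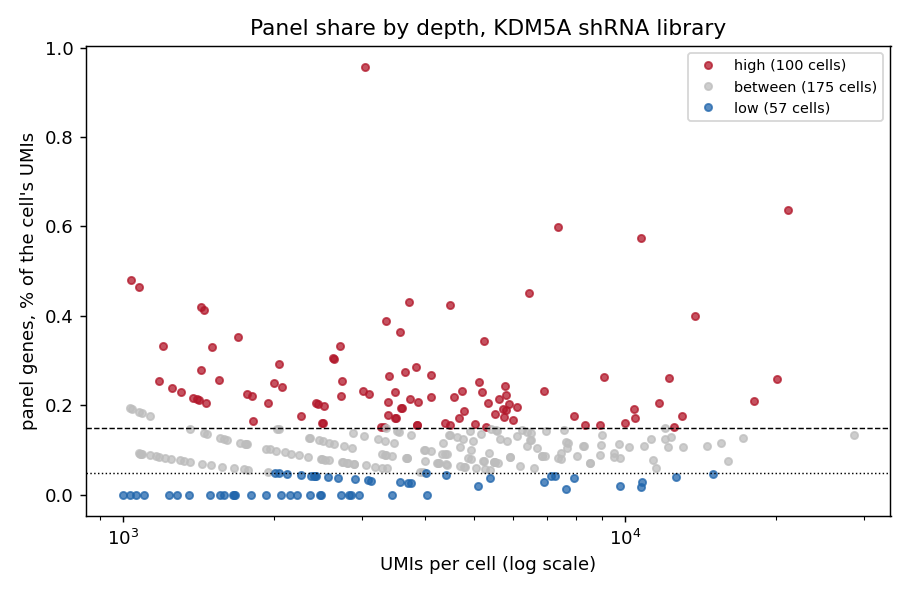
Share of each cell's UMIs in the 11 panel genes (y axis, %) against its UMIs (x axis, log scale) for the 332 kept cells of the KDM5A shRNA library, with dashed and dotted lines at 0.15% and 0.05%. The 100 high cells, the 175 cells between and the 57 low cells form 1 continuous cloud, and the high cells run up to 0.956%.

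Among the pathway's brakes, NFKBIA was counted 289 times in the high cells, 204 times in the cells between and 9 times in the low cells, or 592.6, 236.1 and 42.4 CPM. It was the most widely detected panel gene, with a UMI in 82 of the 100 high cells. TNFAIP3, which encodes the ubiquitin-editing protein A20, had 36 UMIs in high cells, 24 in the cells between and 2 in low cells. NFKBIZ, a nuclear IkB protein, had 89 UMIs in high cells, 67 in the cells between and 7 in low cells. Both were sparser than NFKBIA, with a UMI in 26 and 44 of the high cells.

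ICAM1, an adhesion receptor for leukocytes, reached 266.5 CPM in the high cells, 138.9 CPM in the cells between and 33.0 CPM in the low cells, from 130, 120 and 7 UMIs. IL32, a cytokine gene present in primates and absent from rodents, reached 348.6 CPM in the high cells, 209.4 CPM in the cells between and 51.8 CPM in the low cells, from 170, 181 and 11 UMIs. TNFAIP2, a gene induced by TNF, had 215 UMIs in high cells, 184 in the cells between and 12 in low cells. For these genes the cells between held about as many UMIs as the high cells, and they were detected in 59, 66 and 69 of the high cells. BIRC3, which encodes the inhibitor of apoptosis cIAP2, had 70 UMIs in high cells, 25 in the cells between and 1 in low cells. RELB, a subunit of the non-canonical NF-kB branch, had 25 UMIs in high cells, 45 in the cells between and 3 in low cells, or 51.3, 52.1 and 14.1 CPM, so its level was about the same in the high cells and in the cells between.

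The neutrophil chemokine genes came from few of the high cells. IL8 (CXCL8) had 123, 25 and 1 UMIs in the high, between and low cells, CXCL1 had 102, 4 and 0, and CXCL2 had 37, 6 and 1. Few cells carried them, with an IL8 UMI in 35 high cells, a CXCL1 UMI in 18 and a CXCL2 UMI in 14. The 10 high cells richest in CXCL1 held 90.2% of its UMIs in the class. These same 10 cells held 61.0% of the IL8 UMIs, 70.3% of the CXCL2 UMIs and 14.7% of the IL32 UMIs, with 19.6% of all UMIs of the class. For each panel gene in turn, its own 10 richest high cells held 89.2% of the UMIs of CXCL2 and 72.4% of those of IL8. Among the other panel genes this share ran from 34.6% for NFKBIA, the gene with the most UMIs, to 64.0% for RELB, the gene with the fewest, with 55.6% for TNFAIP3 and 53.9% for NFKBIZ. A chemokine UMI (CXCL1, CXCL2 or IL8) was seen in 45 high cells, an IL32 UMI in 66, both in 31 and neither in 20. A high cell carried UMIs of a median of 4 different panel genes, 67 of the 100 carried at least 4, and 2 carried all 11.

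**Figure D2:**
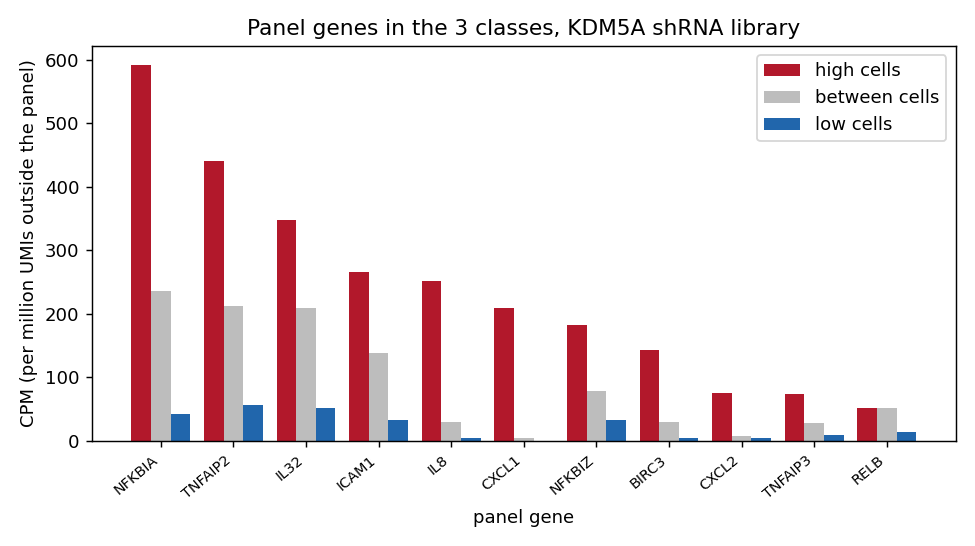
Level of each panel gene (y axis, CPM) in the high, between and low cells of the KDM5A shRNA library, from summed UMIs. NFKBIA stands at 592.6, 236.1 and 42.4 CPM in the 3 classes, IL8 at 252.2, 28.9 and 4.7 CPM, and RELB at 51.3, 52.1 and 14.1 CPM.

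Because each panel gene helped to choose the cells, each was also read in classes set by the other 10. Of the 11 genes, 10 were then higher in the high cells than in the low cells. CXCL1 had 98 UMIs in such high cells and 0 in such low cells, or 14.5-fold higher when the 0 was set to a floor of 3 UMIs. The lower bound of its exact 95% interval was 11.6-fold. IL8 was 11.4-fold higher (exact 95% interval of the ratio of 2 counts, 4.73 to 35.7), CXCL2 7.92-fold (2.03 to 67.9) and BIRC3 7.50-fold (2.40 to 37.8). NFKBIA was 2.62-fold higher (1.92 to 3.60). The others ranged from 1.14-fold for IL32 (0.839 to 1.56) to 1.96-fold for NFKBIZ (1.19 to 3.35), and RELB had a ratio of 0.880 (0.424 to 1.90). These intervals, like all below from 1 library, cover counting error only and not the spread between cultures, for which there is no replicate. IL32, 1 of the 3 genes given as markers of these cells, was thus nearly level between classes set by the rest of the panel.

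The same rule was applied to the other libraries. High cells were 30.1% of the kept cells in the KDM5A shRNA library (exact binomial 95% interval 25.2 to 35.4). They were 21.8% in the KDM5A and KDM5B shRNA library (27 cells, 14.9 to 30.1), 11.4% in the KDM5A overexpression library (12 cells, 6.05 to 19.1) and 4.27% in the CPI-455 library (7 cells, 1.73 to 8.60). In the libraries without erlotinib they were 0.450% with the scrambled shRNA (1 cell, 0.0114 to 2.48) and 1.58% without treatment (13 cells, 0.845 to 2.69). With every cell first thinned to 1000 UMIs the shares were 18.4%, 10.5%, 7.62%, 3.05%, 0.450% and 0.852% in the same order. From all UMIs, the KDM5A shRNA interval lay above those of the overexpression, CPI-455 and both erlotinib-free libraries and overlapped that of the other shRNA library. After thinning it was 14.4 to 23.0 and overlapped both the other shRNA library (5.70 to 17.3) and, narrowly, the overexpression library (3.35 to 14.5). The intervals count cells of 1 library each. With 1 library per condition there is no test of these differences.

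**Figure D3:**
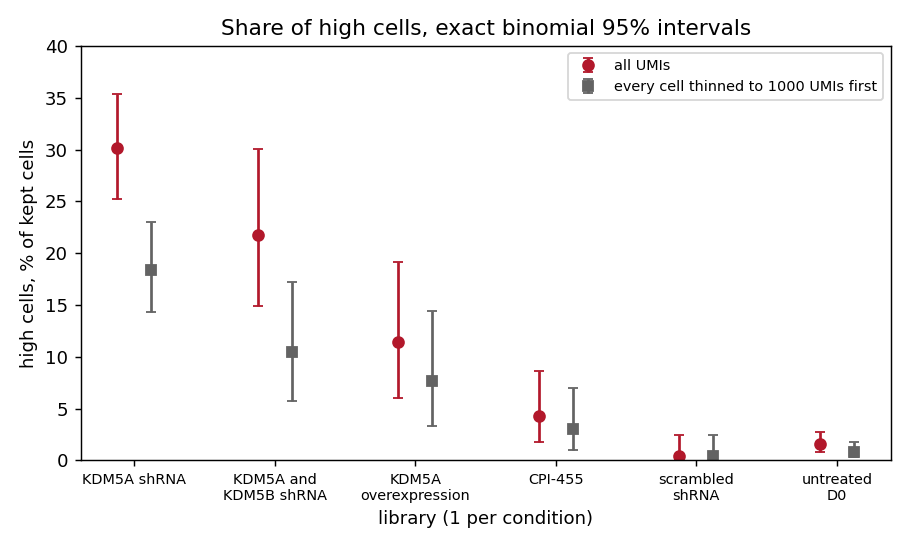
High cells as a share of kept cells (y axis, %) in each of the 6 libraries, with exact binomial 95% intervals, from all UMIs (circles) and after thinning every cell to 1000 UMIs (squares). The share is 30.1% in the KDM5A shRNA library, 0.450% in the scrambled library and 1.58% in the untreated library.

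What the high cells expressed also differed by library. IL32 made up 13.2% of the panel UMIs of the high cells in the KDM5A shRNA library, 5.36% in the double shRNA library, 3.93% with KDM5A overexpression and 0% in the CPI-455 and untreated libraries. Over all kept cells IL32 stood at 231.4 CPM in the KDM5A shRNA library, 79.5 and 77.0 CPM in the other 2 transduced libraries with erlotinib, 1.18 CPM with CPI-455, 0.790 CPM with the scrambled shRNA and 2.70 CPM without treatment. In the untreated library TNFAIP2 alone made up 42.9% of the panel UMIs of the 13 high cells, from 30 of 70 UMIs, against 16.7% in the KDM5A shRNA library. The 1 high cell of the scrambled library was called on 3 TNFAIP2 UMIs. High cells of the untreated library thus rested more on TNFAIP2 than those of the erlotinib libraries. They held no IL32 UMI, and neither did those of the CPI-455 library, which had erlotinib.

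High cells were deeper than low cells. Their median was 3682 UMIs and 1870 genes, against 2482 UMIs and 1413 genes in the low cells and 4231 UMIs and 1994 genes in the cells between. Mitochondrial transcripts took 7.005% of UMIs in the high cells and 7.19% in the low cells. Of the 57 low cells, 27 had no panel UMI at all, 18 had 1 and 12 had 2 or more, so a low call rests on few molecules. In barcodes under 500 UMIs the panel made up 0.134% of UMIs in the KDM5A shRNA library, close to the 0.142% over its kept cells and above the 0.0254% of its low cells. The part of free RNA in the panel counts was not tested.

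The labelled cell type held in both classes. The 5 epithelial markers (EPCAM, CDH1, KRT8, KRT18 and KRT19) summed to 5167 CPM in the high cells and 5218 CPM in the low cells. None of the 7 lymphocyte and leukocyte markers was listed in the library. Of the 7 macrophage markers only CD68, which many cell types express, was counted (28.7 CPM in the high cells and 18.9 CPM in the low cells). Fibroblast markers summed to 4.10 CPM in the high cells and 9.43 CPM in the low cells, and 1 endothelial marker, CDH5, had 10 UMIs in the high cells and 0 in the low cells. These are sums over each class, and the part of other cells in the result was not tested.

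KDM5A, the target of the shRNA, stood at 39.0 CPM in the high cells and 61.3 CPM in the low cells, from 19 and 13 UMIs (log2 ratio -0.65, 95% interval -1.75 to 0.49, but 1.19 with every cell thinned to 1000 UMIs). The vector transcript was at 80.0 CPM in the high cells and 70.7 CPM in the low cells (0.18, -0.71 to 1.14), and a vector UMI was seen in 21 of 100 high cells and 11 of 57 low cells. Both intervals included 0. EGFR, the target of erlotinib, was at 303.5 CPM in the high cells and 438.3 CPM in the low cells (log2 ratio -0.53, -0.91 to -0.14). Its log2 ratio was -0.50 after the double shRNA transduction and 0.54 with KDM5A overexpression, both with intervals that included 0.

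Outside the panel, high and low cells of the KDM5A shRNA library were compared over the 3945 genes at 50 CPM or more in either class. At least 2-fold higher in the high cells were 120 genes (3.04%), and at least 2-fold lower 149 genes (3.78%). These numbers carry no test and depend on depth: with every cell thinned to 1000 UMIs they were 760 higher and 883 lower, and with all cells that were not high taken as the comparison they were 21 higher and 17 lower. The genes named next were the 15 in each direction whose 95% interval lay farthest from no change, a rule that selects them for their difference.

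A first group of the higher genes is known from inflammation. SOD2, the mitochondrial superoxide dismutase and an NF-kB target, was at 410 CPM in the high cells and 146 CPM in the low cells (log2 ratio 1.49, 0.94 to 2.08), with 250 CPM in the cells between. ZC3H12A, an RNase that degrades cytokine messages, was at 77.9 CPM in the high cells and 14.1 CPM in the low cells (2.46, 0.81 to 4.80). IL6, a cytokine, was at 86.1 CPM in the high cells and 18.9 CPM in the low cells (2.19, 0.73 to 4.13), and the 10 CXCL1-rich cells held 17 of its 42 UMIs. TNFRSF11B, the decoy receptor osteoprotegerin, was at 84.1 CPM in the high cells and 18.9 CPM in the low cells, but 12 of its 41 UMIs came from 1 cell. Without each gene's richest cell the ratio was 3.47 for IL6 and 3.22 for TNFRSF11B.

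Enzymes and carriers formed a further group. SAT1, which acetylates spermidine and spermine for export or breakdown, was at 1448 CPM in the high cells and 650 CPM in the low cells (log2 ratio 1.15, 0.89 to 1.43). It had a UMI in 95 of the 100 high cells and 34 of the 57 low cells, and after thinning to 1000 UMIs in 66.0% of high cells and 40.4% of low cells. SLC25A37, the mitochondrial iron importer mitoferrin-1, was at 143.5 CPM in the high cells and 23.6 CPM in the low cells (2.61, 1.32 to 4.27). DRAM1, a lysosomal regulator of autophagy, was at 73.8 CPM in the high cells and 9.43 CPM in the low cells (2.97, 1.01 to 6.07), DCTPP1, a nucleotide pyrophosphatase, at 92.3 CPM in high cells and 23.6 CPM in low cells, DIO2, which activates thyroid hormone, at 582.3 CPM in high cells and 268.7 CPM in low cells, and AKR1B1, aldose reductase, at 3238 CPM in high cells and 2031 CPM in low cells. All 6 were lower in the cells between than in the high cells and higher there than in the low cells.

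Secreted and surface products and 1 mitochondrial protein completed the group. INHBA, the activin A subunit, was at 1460 CPM in the high cells and 830 CPM in the low cells (log2 ratio 0.82, 0.58 to 1.06). C15orf48, a small mitochondrial protein gene, was at 1599 CPM in high cells and 924 CPM in low cells, ATP1B1, the sodium pump β-subunit, at 699 CPM in high cells and 316 CPM in low cells, and RARRES1, a retinoid-responsive gene, at 478 CPM in high cells and 193 CPM in low cells. OLR1, a receptor for oxidized lipoprotein, was at 717.6 CPM in the high cells and 306.4 CPM in the low cells (1.23, 0.84 to 1.63). A single cell held 68 of its 350 UMIs, and without it the ratio was 1.97 in place of 2.34.

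The 15 lower genes were counted less deeply, in classes of 487718 (high) and 212165 (low) UMIs outside the panel. KLK7, a secreted serine protease of epithelia, was at 223.5 CPM in the high cells and 419.5 CPM in the low cells, from 109 and 89 UMIs (log2 ratio -0.91, -1.33 to -0.49). ANKRD1, a target of the YAP coactivator, had 5 UMIs in the high cells and 15 in the low cells (-2.79, -4.60 to -1.25), and its low-cell UMIs came from 3 cells. VIM, vimentin, had 9 UMIs in high cells and 14 in low cells (-1.84, -3.23 to -0.53). SMAD2, a transducer of TGF-β and activin signals, had 13 UMIs in high cells and 18 in low cells. PAICS, of purine synthesis, had 11 UMIs in high cells and 16 in low cells. PPCS, of coenzyme A synthesis, had 39 in high cells and 39 in low cells. SCEL, sciellin of the cornified envelope, had 25 in high cells and 28 in low cells, and CEP57, a centrosome protein, 9 in high cells and 15 in low cells. The others were EPB41L2, PAK1IP1, BTBD7, TTC9C, PPP1R16A, the noncoding RNA KCNQ1OT1 and the pseudogene RPL18AP3, whose reads cannot be separated from those of its parent gene. BTBD7 turned to a log2 ratio of 0.19 with cells thinned to 1000 UMIs and 0.58 against low cells with 0 panel UMIs.

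**Figure D4:**
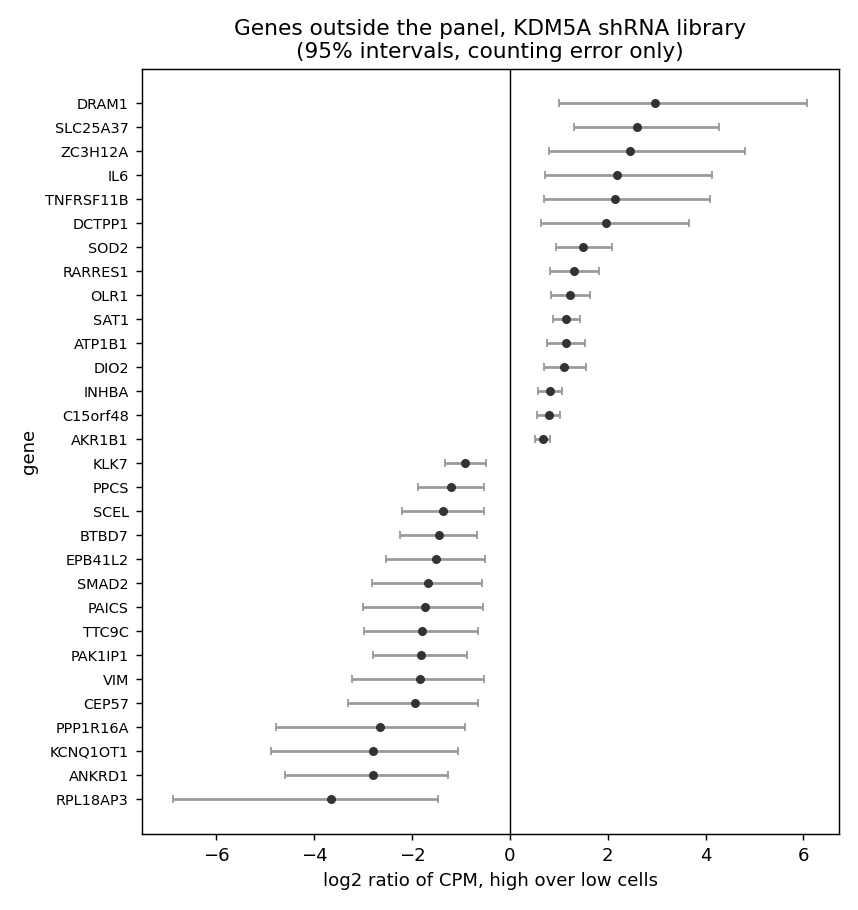
Log2 ratio of CPM, high over low cells (x axis), of the 15 higher and 15 lower genes outside the panel in the KDM5A shRNA library, with exact 95% intervals that cover counting error only. AKR1B1 (0.67) and C15orf48 (0.79) have the narrowest intervals, and DRAM1 (2.97) and RPL18AP3 (-3.66) lie farthest out with wide ones.

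To ask whether these differences recur, UMIs were summed by class within each library that held at least 10 high and 10 low cells, which left 4: KDM5A shRNA, KDM5A and KDM5B shRNA, KDM5A overexpression and untreated. edgeR's quasi-likelihood test with the library as a block and Benjamini-Hochberg adjustment covered 3287 genes outside the panel. It called 21 genes (0.639%), of which 18 were higher in the high cells (0.548%) and 3 lower (0.0913%). The libraries were different conditions, and a call describes the fit over the 4, not a difference found in each. HMGN2 was called with log2 ratios of 0.13, -3.28, -0.71 and -1.56 in the libraries in the order given. The SE below comes from the fold change and the F statistic. Its dispersion is shared between genes, so it does not measure a gene's spread between libraries. The classes were set in the same libraries, but on panel genes that took no part in the test. With the library block left out, edgeR called 0 genes in either direction, with 72 at an unadjusted p under 0.05.

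SAT1 had the smallest adjusted p-value. Its log2 fold change was 1.56 ± 0.17 (SE, 4 libraries, edgeR adjusted p = 8.47e-16), and its level was 1448, 2540, 767 and 164 CPM in the high cells of the KDM5A shRNA, KDM5A and KDM5B shRNA, overexpression and untreated libraries, against 650, 680, 211 and 69.5 CPM in the low cells. High cells were above low cells in all 4 libraries. SOD2 followed with 1.89 ± 0.26 (adjusted p = 2.35e-10), at 410, 267, 323 and 197 CPM in the high cells and 146, 65.8, 66.6 and 33.0 CPM in the low cells of the same libraries. ATP1B1 was higher by 1.28 ± 0.19 (adjusted p = 1.88e-08), at 699, 616, 525 and 493 CPM in the high cells against 316, 205, 200 and 217 CPM in the low cells. For both, the lowest high-cell level lay above the highest low-cell level.

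Acute-phase and mucosal genes were among the calls. SAA1, a serum amyloid A gene, had a log2 fold change of 1.58 ± 0.26 (edgeR adjusted p = 4.13e-07), and its neighbour SAA2 of 2.09 ± 0.41 (7.28e-05). Their transcripts are nearly identical, so the split of reads between them is uncertain, and SAA2 had no UMI in either class of the untreated library. LCN2, the iron-scavenging lipocalin, rose by 0.79 ± 0.14 (2.06e-05). It was at 2702, 4047, 1413 and 625 CPM in the high cells against 2112, 2273, 544 and 334 CPM in the low cells. C15orf48 rose by 1.12 ± 0.18 (3.85e-07), with 2 UMIs in the untreated high cells, where SAA1 had 1.

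Further calls included genes of secreted, surface and intracellular proteins. INHBA rose by 0.98 ± 0.18 (edgeR adjusted p = 1.21e-05), IGFBP3, a carrier of insulin-like growth factors, by 0.73 ± 0.14 (3.62e-05), EDN1, the vasoconstrictor endothelin-1, by 0.87 ± 0.24 (0.0344) and CLDN1, a tight-junction claudin, by 1.37 ± 0.26 (3.10e-05). RARRES1 (1.27 ± 0.25), AKR1B1 (0.55 ± 0.14), BID, a pro-apoptotic BCL2-family member (1.12 ± 0.29), ZFAND5, a zinc-finger protein that binds ubiquitin (0.70 ± 0.19), and SMAD3, a transducer of TGF-β and activin signals (1.18 ± 0.32), also passed (adjusted p 8.55e-05, 0.0157, 0.0164, 0.0341 and 0.0398 in this order). The CPM of these 9 genes was higher in the high cells of every library, which in the untreated library rested on 1 UMI of the high cells for RARRES1 and 2 each for INHBA and EDN1. OLR1 passed at 1.00 ± 0.22 (0.00162) with higher CPM in 3 of 4 libraries, since the untreated high cells had 0 OLR1 UMIs. PLAU, the urokinase gene, passed at 1.60 ± 0.25 (3.01e-07). Its level was 146, 275, 40.4 and 1184 CPM in the high cells against 56.6, 153, 70.5 and 165 CPM in the low cells. PLAU was thus lower in the high cells of the overexpression library. Of the 18 higher genes, 16 had higher CPM in the high cells of every library in which they were counted, in part on these few UMIs.

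The 3 genes called lower were PTTG1, HMGN2 and PHGDH. PTTG1 encodes securin, a regulator of sister chromatid separation at anaphase, and fell by 2.24 ± 0.36 on the log2 scale (edgeR adjusted p = 3.85e-07). It had 3, 3, 10 and 0 UMIs in the high cells of the 4 libraries and 5, 33, 68 and 1214 in the low cells. The classes differ in size, in the untreated library with 30415 UMIs in high cells and 3180609 in low cells. In CPM, PTTG1 was at 6.15, 22.3, 135 and 0 in the high cells and 23.6, 241, 266 and 382 in the low cells. In the KDM5A shRNA library itself the 3 UMIs of high cells and 5 of low cells are too few to show a difference (log2 ratio -1.94, -4.62 to 0.42). HMGN2, a nucleosome-binding protein with many processed copies, fell by 1.18 ± 0.26 across libraries (0.00103), yet stood at 73.8 CPM in the high cells and 66.0 CPM in the low cells of the KDM5A shRNA library. PHGDH, the first enzyme of serine synthesis, fell by 1.24 ± 0.33 (0.0289). In the KDM5A shRNA library it was at 24.6 CPM in high cells and 42.4 CPM in low cells, from 12 and 9 UMIs (log2 ratio -0.79, -2.16 to 0.64). In the untreated library it was not lower, at 164 CPM in high cells and 146 CPM in low cells.

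**Figure D5:**
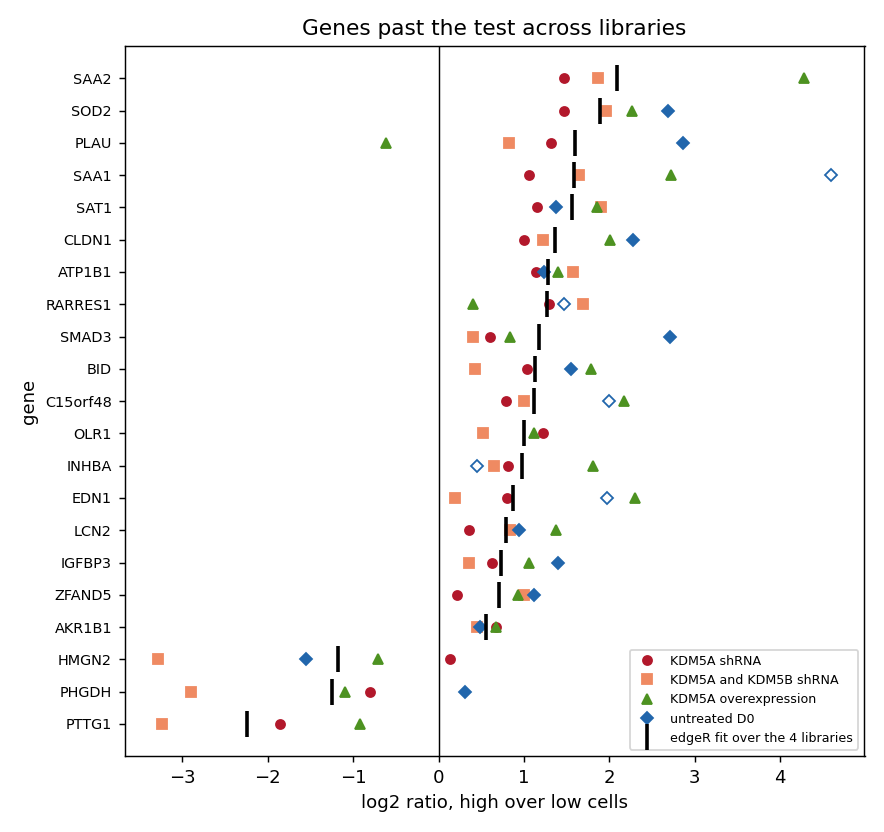
Log2 ratio, high over low cells (x axis), of the 21 genes past edgeR's test in each of the 4 libraries (coloured symbols, open where the high cells had fewer than 3 UMIs, left out where they had 0) and the fitted log2 fold change (black bar). SAT1, SOD2 and ATP1B1 lie right of 0 in every library, PLAU lies left of 0 in the overexpression library, and HMGN2 lies at about 0 in the KDM5A shRNA library.

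The fit without the KDM5A shRNA library takes nothing from the cells that named the 30 genes above. It called 14 genes higher (0.517%) and 4 lower (0.148%) of 2706 tested. Of the 15 higher genes of the KDM5A shRNA library, 10 could be tested there, 9 had a positive fold change and 5 passed: SAT1 (log2 fold change 1.79, edgeR adjusted p = 2.61e-11), SOD2 (2.23, 3.75e-05), C15orf48 (1.43, 4.95e-05), ATP1B1 (1.36, 5.41e-05) and INHBA (1.10, 0.00346). OLR1, RARRES1, AKR1B1, DIO2 and DCTPP1 did not pass, with fold changes from -0.11 for DCTPP1 to 1.20 for RARRES1. SLC25A37, DRAM1, ZC3H12A, IL6 and TNFRSF11B had too few UMIs in the other libraries to be tested. In the fit over all 4 libraries SLC25A37 was tested and did not pass (log2 fold change 0.99, edgeR adjusted p = 0.291). Neither did DIO2 (0.50, 0.457) or DCTPP1 (0.49, 0.877). The log2 ratio of SLC25A37 was 0.90 after the double shRNA transduction, -0.54 with overexpression and -0.98 without treatment. These rest on 11, 3 and 1 UMIs of high cells. Of the 15 lower genes 6 could be tested without the KDM5A shRNA library, 5 had a negative fold change and 0 passed. Of the 21 genes called with all 4 libraries, 13 were called again in this fit and all 20 that could be tested kept their sign. These 21 were called in part from the same libraries, so for them this is no independent check. SAT1, SOD2, ATP1B1, C15orf48, SAA1 and CLDN1, 6 genes, were called whichever of the 4 libraries was left out. BID, EDN1 and SMAD3 were not called without the KDM5A shRNA library (adjusted p 0.268, 0.445 and 0.0720), the overexpression library (0.347, 0.545 and 0.0799) or the untreated library (0.107, 0.111 and 0.788). INHBA, IGFBP3 and LCN2 were not called without the overexpression library (0.116, 0.115 and 0.146), nor PLAU without the untreated library (0.453). AKR1B1 lost its call without any 1 of the 3 erlotinib libraries (0.282, 0.336 and 0.356), as did PHGDH (0.0550, 0.999 and 0.347, in the order KDM5A shRNA, double shRNA, overexpression). ZFAND5 lost it without the double shRNA, overexpression or untreated library (0.793, 0.356 and 0.111), RARRES1 without either shRNA library (0.262 and 0.0998), HMGN2 without the double shRNA or the untreated library (0.852 and 0.453) and OLR1 without the KDM5A shRNA library (0.711). SAA2 could not be tested without either shRNA library, nor PTTG1 without the overexpression library.

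Gene groups of the same biology were then read in the KDM5A shRNA library, as counts of members above and below a log2 ratio of 0 among those with at least 10 UMIs over both classes. Over all 7510 such genes 45.9% were above 0, with a median of -0.04. The medians of the lists moved with the processing: of 31 lists, 21 turned sign under at least 1 alternative. Among the lists named next, the chemokine, protease, interferon, antigen-presentation, immediate early and metallothionein medians kept their sign in every alternative that gave one. The YAP and matrix median turned in 4 of 10 (to 0.34 with thinned cells), NF-kB subunits in 4 of 10, acute-phase genes in 3 of 10 (to -0.50 with low cells of 0 panel UMIs), receptors, lysosome and ribosomal genes in 2, 2 and 6 of 10, other NF-kB targets and apoptosis genes in 1 of 10 each and hypoxia in 1 of 9. Other chemokines and cytokines, outside the panel, had a median of 0.98, with 6 above and 2 below of 8. CXCL16 was at 199 CPM in the high cells and 189 CPM in the low cells, and the other members were counted far less. Other NF-kB targets had 7 above and 5 below of 12 (median 0.23), with SOD2 joined by SDC4, the proteoglycan syndecan-4, at 330 CPM in the high cells and 231 CPM in the low cells, while ELF3, an epithelial transcription factor, was at 303 CPM in high cells and 349 CPM in low cells. In the 4-library test, where 1521 of all 3287 genes (46.3%) had a positive fold change and 0.548% were called higher, all 8 tested members of this list had a positive fold change and 1 passed, SOD2.

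Genes of the pathway's own machinery lay on both sides of 0. Of 13 NF-kB subunits and regulators 6 were above 0 and 7 below (median 0.00). RELA, the main activating subunit, was at 88.2 CPM in the high cells and 42.4 CPM in the low cells. For each of these 13 genes, RELA among them, the interval of the log2 ratio for counting error included 0. TNIP1, a partner of A20, was at 338 CPM in high cells and 311 CPM in low cells, and CYLD, a deubiquitinase that restrains the pathway, at 47.2 CPM in high cells and 66.0 CPM in low cells. Receptors and adaptors had 7 above and 5 below of 12 (median 0.11), with TNFRSF12A, the TWEAK receptor, at 535 CPM in the high cells and 485 CPM in the low cells and TNFRSF1A, the main TNF receptor, at 69.7 CPM in high cells and 61.3 CPM in low cells. No member of either list passed in the 4-library test, which could test 3 and 5 of them.

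Acute-phase and mucosal genes had 7 above and 2 below of 9 (median 0.13). PDZK1IP1 was at 775 CPM in the high cells and 467 CPM in the low cells and SAA1 at 269 CPM in high cells and 127 CPM in low cells, whereas SLPI, a secreted protease inhibitor, was at 328 CPM in high cells and 368 CPM in low cells. All 8 members tested over the 4 libraries had positive fold changes, against 46.3% of all genes tested, and 3 passed, SAA1, SAA2 and LCN2, against 0.548% of all genes. Secreted proteases and inhibitors had 8 above and 2 below of 10 (median 0.14). PLAU was at 146 CPM in the high cells and 56.6 CPM in the low cells.

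Interferon-response genes had 5 above and 2 below of 7 (median 0.34), among them GBP1, an interferon-induced GTPase, at 176 CPM in the high cells and 104 CPM in the low cells, and IFITM3 at 207 CPM in high cells and 193 CPM in low cells. Antigen-presentation genes had 4 above and 1 below of 5 (median 0.18), with B2M, the class I light chain, at 2294 CPM in high cells and 2079 CPM in low cells. No member of these 2 lists passed in the 4-library test, which could test 3 of 23 and 3 of 19 genes. The classic interferon genes IFIT1, MX1 and OAS1 had at most 2 UMIs in either class. Apoptosis regulators had 8 above and 5 below of 13 (median 0.24). BID was at 187 CPM in the high cells and 89.6 CPM in the low cells, and CFLAR, which blocks caspase-8 activation, at 131 CPM in high cells and 47.1 CPM in low cells. Immediate early genes had 11 above and 5 below of 16 (median 0.22), with ZFP36L1, an mRNA-decay factor, at 472 CPM in high cells and 335 CPM in low cells and JUN at 168 CPM in high cells and 240 CPM in low cells.

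YAP targets and matrix genes split, with 10 above and 11 below of 21 (median -0.11). CYR61 was at 642 CPM in the high cells and 962 CPM in the low cells (log2 ratio -0.58, -0.84 to -0.32). Its relative CTGF, named after its values were seen, was at 185 CPM in high cells and 306 CPM in low cells (-0.73, -1.21 to -0.25). In the same list IGFBP3 was at 5146 CPM in high cells and 3337 CPM in low cells, INHBA at 1460 CPM in high cells and 830 CPM in low cells and F3, tissue factor, at 1062 CPM in high cells and 820 CPM in low cells. In the 4-library test 10 of 17 members had a positive and 7 a negative fold change, and 2 were called, INHBA and IGFBP3, both higher (0.548% of all genes tested). Hypoxia genes had 1 above and 7 below of 8 (median -0.58) and metallothioneins 0 above and 4 below (median -0.39). Lysosome genes had 5 above and 12 below of 17 (median -0.19). In the KDM5A shRNA library no member of these 3 lists had an interval below 0, and 1 lysosome gene had one above 0. The 4-library test could test 2 of 13 hypoxia genes, 1 of 7 metallothioneins and 15 of 18 lysosome genes. None was called, against 0.639% of all genes tested, so for lists this small the lack of calls decides nothing. Ribosomal protein genes had 14 above and 15 below of 29 in the KDM5A shRNA library (median 0.00). In the 4-library test 2 of 29 had a positive and 27 a negative fold change (median -0.15), and none was called.

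Cell-cycle genes were scarce in the KDM5A shRNA library whatever the class. The 34 genes of the G2 and M phases summed to 439 CPM in the high cells and 452 CPM in the low cells, and only 6 of them reached 10 UMIs. The same sum was 312 CPM in the high cells and 2244 CPM in the low cells after the double shRNA transduction. With KDM5A overexpression it was 1534 CPM in high cells and 1355 CPM in low cells, and in the untreated library 5951 CPM in high cells and 9097 CPM in low cells. In the 4-library test 8 of 9 tested G2 and M genes had a negative fold change, against 1766 of all 3287 genes (53.7%). The median of these 9 was -0.76 against -0.03 over all tested genes, and PTTG1 was the 1 that passed. The 30 S phase genes summed to 467 CPM in high cells and 396 CPM in low cells of the KDM5A shRNA library. In high and low cells the sums were 431 and 665 CPM after the double shRNA transduction and 579 and 717 CPM with overexpression. Without treatment they were 5096 CPM in high cells and 3891 CPM in low cells.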

How the data were processed

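The 6 libraries of PC9 cells were sequenced by Drop-seq, 1 per condition. The deposited tables hold raw counts, whole UMIs per gene symbol and cell barcode. STAR, FastQC and the build GRCh37.p13 (hg19) are named in the submitters' processing notes, while versions, settings and the counting tool are not given in the sources used here. The panel, classes, gene lists and tests were chosen with earlier results of these data known.

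Panel UMIs were left out of totals when CPM and ratios were computed. Within a library, ratios of summed UMIs carry exact conditional 95% intervals for counting error, and a count of 0 was set against a floor of 3 UMIs. For lists, 0.5 was added to each count. Genes named within the library were the 15 in each direction with the interval bound farthest from 0, and within lists those with the most UMIs or a call. Across libraries, edgeR 4.0.16 (quasi-likelihood, TMM, filterByExpr, library block, R 4.3.3) was fitted to class sums, with DESeq2 1.42.0 as an alternative. Calls have an adjusted p under 0.05. Tested on simulated counts with the library sizes of this comparison, edgeR recovered 71 of 97 genes changed 2-fold and 94 of 95 changed 4-fold, and called 4 unchanged genes. The simulation gave all genes 1 dispersion (coefficient of variation 0.1154) and every library the same mean profile and fold change. Genes or libraries that differ in these, as the real ones do, were not simulated, so the figures do not give the error rate of the calls here. Doublets were not sought, since all cells are of 1 line, and no other filter was applied. Total kept UMIs ranged from 571873 to 3708703 per library. A replicate block does not apply, and the library is the block.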

Additional observations from a re-analysis of the deposited data

Results flagged for a closer look

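PAK1IP1, lower in the high cells of the KDM5A shRNA library (log2 ratio -1.81, 17 UMIs in the high cells and 26 in the low cells), was higher in the high cells of the CPI-455 library (2.94), from 5 UMIs in 7 high cells and 21 UMIs in 105 low cells. TTC9C, also lower in the high cells of the KDM5A shRNA library, was higher in those of the untreated library (log2 ratio 1.95), from 4 UMIs in the high cells and 108 in the low cells. In both cases the 95% intervals of the pair of libraries lay on opposite sides of 0, and the difference between libraries was not tested.

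In barcodes under 500 UMIs, which entered no comparison, the panel made up 0.134% of UMIs in the KDM5A shRNA library, against 0.0153% in the scrambled and 0.0305% in the untreated library.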

How the results depend on the processing

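No paired analysis by replicate number was possible because each condition is 1 library. The block used here is the library. Without it edgeR called 0 genes higher and 0 lower. The 18 higher calls became 11 with DESeq2, 4 without a filter on low counts (22786 genes tested), 7 with every cell thinned to 1000 UMIs (669 genes tested) and 11 without barcodes that contain an N. Leaving out 1 library at a time gave 10 to 15 higher and 1 to 4 lower calls, with the fewest higher calls, 10, without the overexpression library and the fewest lower calls, 1, without the KDM5A and KDM5B shRNA library. The 3 lower calls became 1 with DESeq2, 0 after thinning, 1 with low cells of 0 panel UMIs, 1 with all cells that are not high as low, 1 without IL32 in the panel and 0 without N barcodes. No called gene changed sign in the alternatives that tested it. SAT1 kept its call in 17 of 18 alternatives and SOD2 in 16 of 17, while EDN1 kept it in 4 of 17. With high set at 0.3% or more only 1 library kept 10 high cells, and the test could not be fitted.

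The 120 genes 2-fold higher and 149 lower in the KDM5A shRNA library became 760 and 883 with thinned cells, 524 and 466 with high at 0.3% or more, 415 and 755 with low cells of 0 panel UMIs, 21 and 17 with all cells that are not high, 219 and 283 with cells weighted equally, and 548 and 579 at 20 CPM. The higher genes were 201 without N barcodes. High cells were 18.4% with cells thinned first, 6.33% at 0.3% or more and 21.7% without IL32. BTBD7 reversed, to a log2 ratio of 0.19 with thinned cells and 0.58 with low cells of 0 panel UMIs. KDM5A turned from -0.65 to 1.19 with thinned cells. Of 31 list medians 21 turned sign under at least 1 alternative, 5 of the 24 with a thinned value when cells were thinned.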

Other observations

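Several genes passed the test in the 3 libraries other than the KDM5A shRNA library but did not differ the same way in it. TFPI2, a secreted serine protease inhibitor, rose in the high cells of the other libraries (log2 fold change 1.31, edgeR adjusted p = 0.000508), and in the KDM5A shRNA library its log2 ratio was -0.30 (95% interval -0.55 to -0.03). TP53BP2, a p53-binding protein, rose by 1.67 (0.00807) with a ratio of 0.00 in the KDM5A shRNA library (-0.72 to 0.75). CDKN2B, the cyclin-dependent kinase inhibitor p15, rose by 1.63 (0.0425), against a ratio of 0.17 (-0.47 to 0.84). TOP2A, the mitotic topoisomerase, fell by 2.12 in the other libraries (0.00136) and had no UMI in either class of the KDM5A shRNA library. The difference between libraries was not tested for any of the 4 genes.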
